A study of Mus musculus with 34 samples.

Results

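Dense PDX1 peak clusters are stretches of the genome in which chromatin immunoprecipitation with sequencing (ChIP-seq) placed many PDX1 peaks close together. The list of PDX1 peaks in wild-type cells under control conditions held 40005 peaks on nuclear chromosomes. Peaks were chained wherever neighbouring centres lay 12.5 kb or less apart, and chains of 5 or more peaks were kept. This gave 144 clusters with 783 member peaks, 1.96% of the 40005. The members were chosen on the positions of these measured peaks, so their spacing, number and tag counts in that list are a description and support nothing.

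The study applied ChIP-seq to Beta-TC6 cells, a single mouse insulin-producing β-cell line. PDX1 and p65 were immunoprecipitated from wild-type (WT) and Bmal1-/- cells, each under control conditions and with IL-1β, in 8 groups of 3 samples. SIN3A was immunoprecipitated from wild-type cells given control siRNA or Pdx1 siRNA, in 2 samples each. All samples, controls included, had received a 1 h pulse of 10 µM forskolin, an adenylate cyclase activator used to set the clock. The labels give neither how the Bmal1-/- cells were made and whether they are 1 clone, nor the dose and duration of IL-1β, nor whether samples of 1 group were separate cultures. For PDX1 with IL-1β, in both genotypes, the antibody field names p65 and the titles PDX1, and the titles were followed. Each group has a single peak list without values per sample, so no replicate spread was at hand and no difference between conditions was tested. Shares carry Wilson 95% intervals, which cover counting error only and treat neighbouring peaks as independent, although peaks of a cluster share a locus.

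PDX1 is the homeodomain factor that directs pancreas formation and later holds the mature β-cell program, including insulin expression. It binds short TAAT-type sites, often at enhancers inside introns and between genes. Enhancers that lie close together around cell-identity genes are often described as enhancer clusters. Bmal1 encodes an activator of the circadian clock that binds E-box sites, CACGTG in their palindromic form, and in β-cells the clock is known to time genes of insulin release. p65 (RELA) is the NF-κB subunit that enters the nucleus when IL-1β, an inflammatory cytokine, binds its receptor. SIN3A is the scaffold of a histone deacetylase complex.

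The sequences shown are those of promoters under member peaks. The promoter windows used were those of RefSeq on GRCm38.p6, from 250 bases before to 50 bases after a start, and 8 members overlapped a window, at 8 genes. This was 1.02% of 783 (0.519% to 2.00%), against 1.51% of the 39222 peaks outside (1.40% to 1.64%), and the intervals overlapped. At 5 of the 8 the start itself lay inside the member peak. Of these 5, the windows of 3 are shown, whose peaks were also in 3 or more of the other 9 lists. The peak at Gm36690, in the Cdh22 cluster, was in 1 other list and that at 9030622O22Rik, in the Foxa2 cluster, in none. The windows are read 5′ to 3′ on the strand of the gene, with the 6-base sequences TAATTA and CACGTG in capitals where present.
Gm34157, beside Tle3: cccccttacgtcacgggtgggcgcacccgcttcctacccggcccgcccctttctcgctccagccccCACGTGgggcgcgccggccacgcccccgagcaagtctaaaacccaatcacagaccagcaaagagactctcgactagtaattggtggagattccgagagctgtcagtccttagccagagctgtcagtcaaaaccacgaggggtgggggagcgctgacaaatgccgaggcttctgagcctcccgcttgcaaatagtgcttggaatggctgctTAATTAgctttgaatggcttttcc
Cmip: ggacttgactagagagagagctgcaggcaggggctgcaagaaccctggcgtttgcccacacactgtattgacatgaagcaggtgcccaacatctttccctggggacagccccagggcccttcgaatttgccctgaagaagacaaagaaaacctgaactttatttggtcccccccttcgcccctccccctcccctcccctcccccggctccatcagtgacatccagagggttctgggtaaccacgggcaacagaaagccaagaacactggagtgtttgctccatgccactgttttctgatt
Pde1c: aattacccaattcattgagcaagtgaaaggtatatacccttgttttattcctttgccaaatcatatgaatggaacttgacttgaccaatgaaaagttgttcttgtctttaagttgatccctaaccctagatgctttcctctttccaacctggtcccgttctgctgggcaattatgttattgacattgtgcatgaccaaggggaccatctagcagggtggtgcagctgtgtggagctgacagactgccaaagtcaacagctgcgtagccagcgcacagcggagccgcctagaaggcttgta

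The Gm34157 window lies at chr9:61370441-61370740, minus strand, and belongs to a predicted gene next to Tle3, which encodes a Groucho-family corepressor. Its member peak, chr9:61370320-61370526, was the strongest of the 6 peaks of the Tle3 cluster at 34.6 tags per 10 M sequenced tags. That peak was also listed with IL-1β at 41.1 tags, in Bmal1-/- control cells at 22.3 and in Bmal1-/- cells with IL-1β at 19.1. TAATTA, a homeodomain-type core, lay inside the peak at chr9:61370459-61370464, and the E-box CACGTG lay 143 bp outside it. The window of Cmip, which encodes the c-Maf-inducing protein, lies at chr8:117348920-117349219, plus strand. Its peak, chr8:117349148-117349354, held 58.5 PDX1 tags in control cells, 72.5 with IL-1β and 21.1 in Bmal1-/- cells with IL-1β, and was not in the Bmal1-/- control list. p65 was listed there with IL-1β at 32.5 tags in wild-type and 8.83 in Bmal1-/- cells. The window of Pde1c, a calmodulin-dependent cyclic nucleotide phosphodiesterase, lies at chr6:56362761-56363060, minus strand. The peak there was in the Bmal1-/- PDX1 list neither of control cells nor with IL-1β. The Cmip and Pde1c starts lie inside the gene bodies, with peak centres 92232 and 289654 bp from the nearest protein-coding gene end. Neither window is thus at an end of its gene. On both strands, TAATTA occurred in windows of 1 of the 8 genes, CACGTG in windows of 2 (Gm34157 and Gm34736), and an NF-κB site in none. Over all 32817 promoter windows of this length the shares were 5.30%, 7.15% and 8.46%. A match is a description of the letters in a window only, and the windows cover the peaks in part.

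Clusters were short and mostly near the minimum of the rule. Of the 144, 100 held 5 peaks, 31 held 6, 8 held 7, 4 held 8 and 1 held 9. Just outside the rule were 317 chains of 4 peaks, whose members had a median of 12.6 tags, the same as clusters of 5. The largest distance between neighbouring centres inside a cluster was 12465 bp, and the smallest distance at the edge of one was 12501 bp. Of the 639 inside distances 44, and of the 288 edges 11, lay within 1 kb of the limit. The median inside distance was 7190 bp, compared with 32351 bp between all neighbouring peaks. Clusters spanned 10688 to 64726 bp, with a median of 29408 bp.

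Members were stronger peaks than the rest. Their median was 13.0 tags per 10 M (middle 50% from 7.81 to 22.8, highest 166), against 7.98 outside the clusters (middle 50% from 4.99 to 14.5, highest 208). Together they held 2.79% of the tags of all listed peaks. Summed over its peaks a cluster held 29.2 to 290 tags, with a median of 86.1, and its strongest peak carried 20.8% to 81.2% of that sum, with a median of 32.3%. Clusters were thus uneven inside, and the number of peaks did not order them by summed tags. The 9-peak cluster held 115.8 tags and ranked 38th by sum, while clusters of 5 peaks ranged from 29.2 to 214.1 tags.

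**Figure D1:**
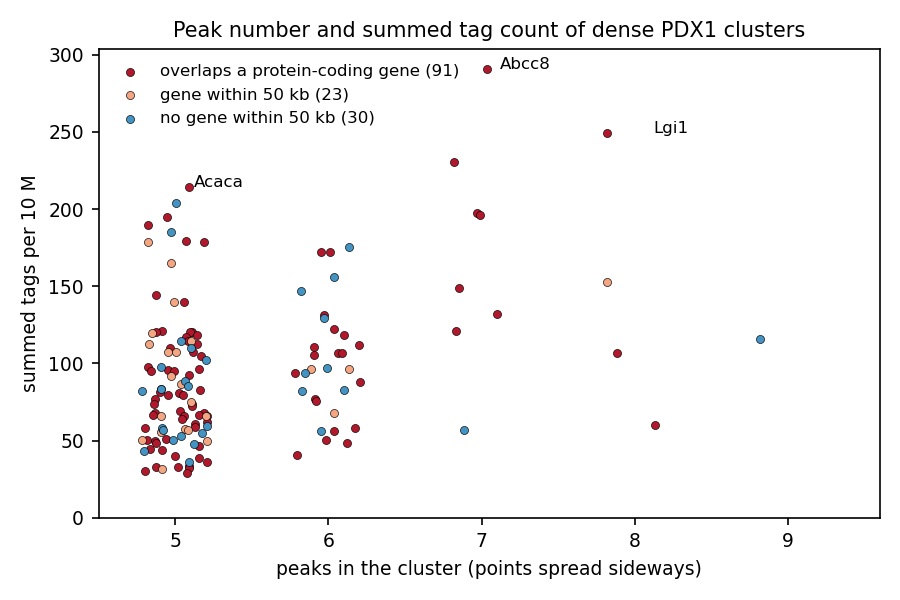
Number of peaks (horizontal axis) and summed normalised tag count per 10 M (vertical axis) of each of the 144 dense PDX1 clusters, 1 point per cluster, coloured by the position of protein-coding genes. The Abcc8 cluster has the highest sum, 290.4 tags from 7 peaks, and the Acaca cluster reaches 214.1 tags from 5 peaks.

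Peaks of a cluster are called listed in another condition where a peak of that list overlaps them by at least 1 bp. Over all 40005 wild-type control PDX1 peaks this share was 60.1% for PDX1 with IL-1β, 19.1% for PDX1 in Bmal1-/- control cells and 17.7% in Bmal1-/- cells with IL-1β. For p65 it was 4.37% in wild-type control cells, 19.6% in wild-type cells given IL-1β, 0.127% in Bmal1-/- control cells and 11.3% in Bmal1-/- cells given IL-1β. For SIN3A it was 2.24% with control siRNA and 2.85% with Pdx1 siRNA. The counts of single clusters stand against these shares, which rise with the tag count of a peak.

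The strongest cluster lay inside Abcc8, which encodes the sulfonylurea receptor, the regulatory subunit of the KATP channel that couples glucose metabolism to insulin release. Its 7 peaks lay at chr7:46113816-46155905, within the gene body at chr7:46104523-46180039. Numbered 1 to 7 by position they held 31.4, 83.4, 58.0, 23.9, 58.8, 12.1 and 22.8 PDX1 tags in wild-type control cells. With IL-1β all 7 were listed, at 30.6, 85.8, 69.6, 25.9, 67.5, 12.6 and 30.3 tags, so 6 were higher and 1 lower than in control cells. In Bmal1-/- control cells 5 were listed, peaks 2 to 5 at 43.8, 25.4, 12.7 and 26.2 tags and peak 7 at 13.9, each below its wild-type value. In Bmal1-/- cells with IL-1β 4 were listed, peaks 2, 3, 5 and 6, at 34.9, 21.6, 21.0 and 10.6 tags. Peak 1, at 31.4 tags, was in neither Bmal1-/- list although weaker ones were. Each list counts tags over peaks of its own width, 207 bp for PDX1 in wild-type control cells, 226 bp with IL-1β, 472 bp in Bmal1-/- control cells and 418 bp in Bmal1-/- cells with IL-1β, so values are set side by side without a test. Kcnj11, which encodes the pore of the same channel, lay 12864 bp from this cluster.

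The Abcc8 peaks also carried p65 and SIN3A. With IL-1β wild-type p65 was listed at peaks 1, 2, 5 and 7, at 15.7, 84.4, 36.2 and 11.0 tags. In Bmal1-/- cells with IL-1β only peaks 2 and 5 had p65, at 26.8 and 12.7 tags. In wild-type control cells p65 was listed at peak 2 alone, at 18.2 tags. Among the members, the strongest PDX1 peak thus had the highest p65 count in each of these 3 lists. SIN3A was listed at peaks 3 and 5 with control siRNA (24.8 and 14.8 tags) and at peaks 3 and 4 with Pdx1 siRNA (16.0 and 12.3 tags).

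The second strongest cluster, 8 peaks and 249.1 tags at chr19:38231739-38271443, overlapped Lgi1, which encodes a secreted protein of synapses. Peaks 1 to 8 held 27.9, 26.4, 74.6, 25.3, 48.9, 16.1, 22.1 and 7.81 PDX1 tags in wild-type control cells. All 8 were listed with IL-1β, at 27.9, 34.5, 96.7, 31.7, 45.5, 28.3, 36.8 and 11.7 tags, and only peak 5 was lower than in control cells. In Bmal1-/- control cells peaks 3 and 5 alone were listed, at 52.5 and 50.5 tags, and these are the strongest pair. With IL-1β p65 was listed at 5 of the 8 peaks in wild-type cells, at 118.1 tags on peak 3 and 29.0, 17.6, 26.9 and 8.59 on peaks 4, 6, 7 and 8. In Bmal1-/- cells with IL-1β it was listed at peaks 3, 4, 5 and 7, at 60.6, 19.4, 13.4 and 9.36 tags. Peak 5 thus had p65 in Bmal1-/- cells and not in wild-type cells.

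Msi2, which encodes an RNA-binding regulator of translation, held 2 clusters 30648 bp apart, with 7 peaks and 230.7 tags in the first and 5 peaks and 189.7 tags in the second. The first, chr11:88460220-88501585, was the most even of all, its strongest peak carrying 20.8% of the sum. Peaks 1 to 7 held 23.6, 42.9, 47.9, 26.6, 28.7, 34.4 and 26.6 tags, and all 7 were listed with IL-1β, at 27.7, 55.7, 54.2, 31.9, 31.9, 42.4 and 24.8 tags. In Bmal1-/- control cells peaks 2, 3 and 5 were listed, at 16.3, 17.8 and 22.3 tags, and peak 6, at 34.4 tags in wild-type cells, was not. p65 with IL-1β reached 68.2 tags on peak 2 and 19.6 on peak 4 in wild-type cells, and 19.2 on peak 2 in Bmal1-/- cells.

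Acaca and Ascc1 kept the largest share of their peaks in Bmal1-/- control cells among the 8 clusters with the highest sums. Acaca encodes the acetyl-CoA carboxylase that commits carbon to fatty acid synthesis, and Ascc1 a subunit of a transcriptional coactivator complex. The 5 Acaca peaks, chr11:84376256-84397381, held 35.1, 33.6, 31.4, 45.5 and 68.5 tags in wild-type cells. All but peak 2 were listed in Bmal1-/- control cells, at 27.2, 31.9, 37.6 and 21.0 tags. Peak 3 thus had a count near that in wild-type cells, though over 472 bp rather than 207 bp. p65 with IL-1β was listed at peaks 1 and 4 in wild-type cells, at 29.1 and 12.9 tags. The 5 Ascc1 peaks, chr10:60021666-60042698, held 37.6, 54.0, 43.0, 28.4 and 31.7 tags, and all but peak 1 were listed in Bmal1-/- control cells, at 34.5, 29.3, 23.5 and 20.7 tags. p65 with IL-1β was listed at Ascc1 peaks 2, 3 and 5 in both genotypes, at 24.5, 31.9 and 13.8 tags in wild-type and 15.4, 11.8 and 7.06 in Bmal1-/- cells.

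Asic2, an acid-sensing ion channel gene, held 7 peaks and 197.3 tags at chr11:81535024-81567473. Of its peaks 6 were listed with IL-1β and 2 in Bmal1-/- control cells, peak 3 at 43.7 and peak 6 at 20.2 tags. Slc7a14, a gene of the cationic amino acid transporter family, held 7 peaks and 196.0 tags at chr3:31259750-31303730. With IL-1β all 7 were listed in wild-type cells, and p65 was listed at 4 of the 7 in each genotype, on peaks that were not the same in both. Peak 5 of Slc7a14, its strongest at 62.1 PDX1 tags, had p65 in wild-type control cells (12.6 tags) and in Bmal1-/- cells with IL-1β (15.2 tags) but not in wild-type cells with IL-1β. The remaining cluster of the 8 highest sums, chr14:68314991-68355825, rested on 1 peak. That peak held 165.7 of 204.1 tags (81.2%), and the other 4 held 6.31 to 13.0. The strong peak was in all 4 PDX1 lists, at 209.5 tags with IL-1β and 102.8 and 83.9 in Bmal1-/- cells without and with IL-1β. The nearest protein-coding gene of that cluster, Adam7, lay 141511 bp away.

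**Figure D2:**
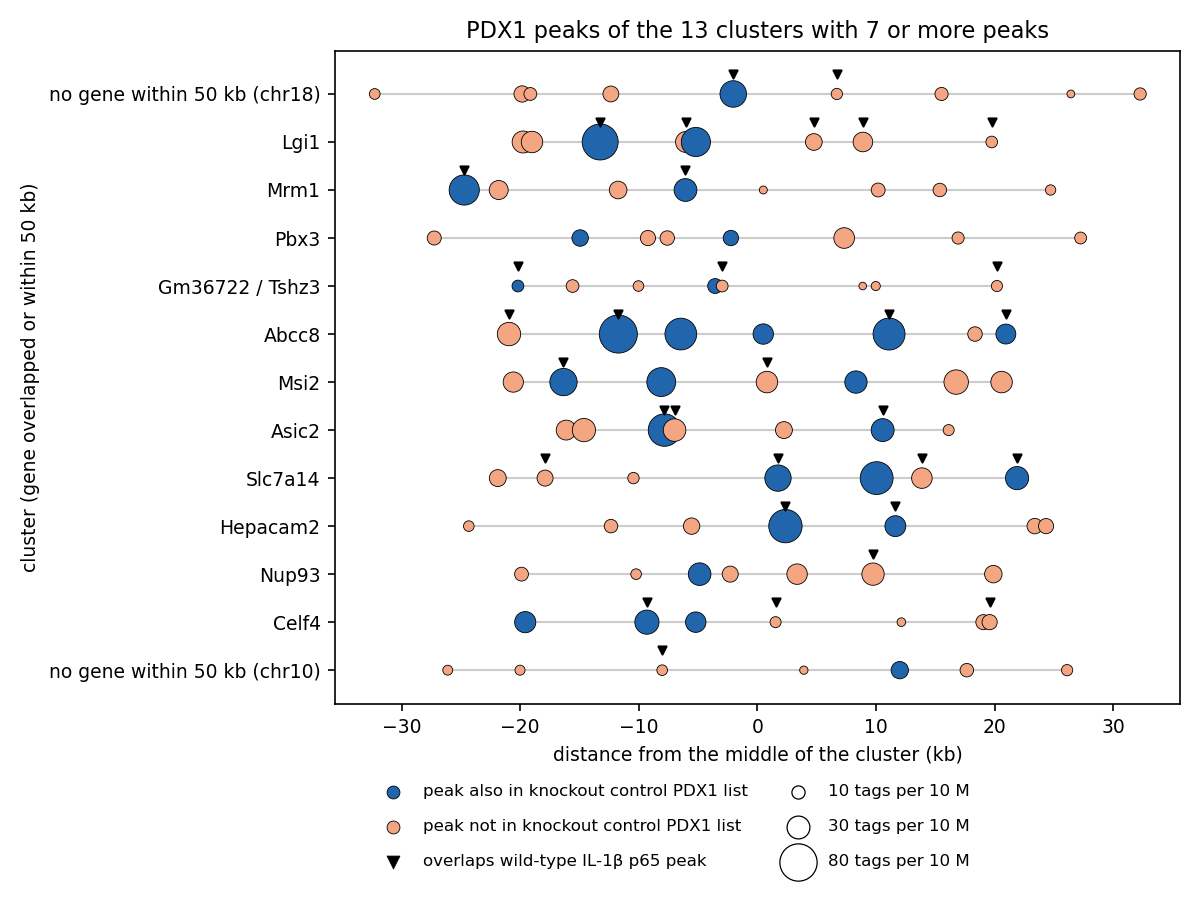
Peaks of the 13 clusters with 7 or more peaks, placed by distance in kb from the middle of the cluster, 1 row per cluster and 1 circle per wild-type control PDX1 peak with an area proportional to its normalised tag count. Blue circles overlap a PDX1 peak of Bmal1-/- control cells and triangles mark overlap with a wild-type IL-1β p65 peak. In most rows the blue circles are the larger ones, as for Lgi1, where 2 of 8 are blue, and Abcc8, where 5 of 7 are.

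Among the other clusters of 7 or more peaks, the lowest shares in Bmal1-/- control cells were 1 of 9 and 1 of 7 peaks. The only cluster of 9 peaks, chr18:55519636-55584361, lay 527045 bp from the nearest protein-coding gene, Zfp608. Its peaks held 3.49 to 40.5 tags, and only the strongest was in the Bmal1-/- control list, at 33.7 tags. With IL-1β 5 of the 9 were listed in wild-type cells. The 7-peak cluster chr10:112758043-112810455 held 57.1 tags, with 4 of 7 peaks listed with IL-1β and 1 in Bmal1-/- control cells. Tshz3, a zinc-finger homeobox gene, and the overlapping model Gm36722 held 8 peaks with 59.8 tags, of which 5 were listed with IL-1β and 2 in Bmal1-/- control cells. Nup93, a nuclear pore gene, held 7 peaks with 132.1 tags, 6 listed with IL-1β and 1 in Bmal1-/- control cells.

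Pbx3, which encodes a TALE homeodomain factor of the family that pairs with other homeodomain proteins, held 8 peaks and 107.0 tags. Of these 4 were listed with IL-1β, 2 in Bmal1-/- control cells and 4 in Bmal1-/- cells with IL-1β, and none overlapped p65 in any of the 4 p65 lists. Hepacam2, an immunoglobulin-type adhesion gene, held 7 peaks and 148.7 tags. Peak 4 stood out at 64.0 tags and was in all the other lists but Bmal1-/- control p65. Celf4, which encodes an RNA-binding splicing regulator, held 7 peaks with 121.2 tags, 3 of them in the Bmal1-/- control list. A cluster of 8 peaks and 152.5 tags lay 37407 bp from Mrm1, a mitochondrial RNA methyltransferase gene, with 5 of 8 listed with IL-1β and 2 in Bmal1-/- control cells. Over the 13 clusters the share in the Bmal1-/- control list ran from 11.1% to 71.4%.

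Most members were found again when wild-type cells received IL-1β. Of 783 members 536 overlapped a PDX1 peak of that list by at least 1 bp, 68.5% (65.1% to 71.6%), and over all 40005 peaks the share was 60.1%. Peaks with more tags were found again more often, and members have more tags, so shares were also taken within 4 equally large classes of all peaks by tag count. In the highest class 92.4% of members (89.1% to 94.8%) and 94.2% of the peaks outside (93.7% to 94.7%) were found again. In the second class the shares were 63.4% (57.0% to 69.3%) and 71.8% (70.9% to 72.6%). Peaks outside the clusters, weighted to the members' classes, reached 73.7%. Members were thus found again more often than all listed peaks, and less often than peaks of like strength, and neither difference was tested. Of peaks in chains of 4, just outside the rule, 66.6% were found again. Within a class members stood out less from the surrounding 10 kb, with a median ratio to local tags of 6.53 in the second class against 8.17 outside, and in the third 40.3% of them against 23.0% lay under 5-fold, close to the 4-fold the peak caller required. The rule picks peaks with close neighbours, whose tags can fall in these 10 kb, so it favours a lower ratio. The part of the local ratio in the lower share was not tested.

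All 144 clusters kept at least 1 peak with IL-1β and 23 kept all. The clusters themselves were less often the same. The same rule gave 132 clusters with 734 peaks in the IL-1β list, and 42 of the 144 control clusters (29.2%) overlapped one of them, or 42 of the 132 (31.8%). The spans of the 144 held 569 IL-1β PDX1 peaks, of which 33 overlapped no member and lay in 31 clusters. In 113 clusters the span held fewer peaks than in control cells, in 25 as many and in 6 more. This is also what the choice of dense stretches in the control list favours. Seen from the other side, peaks of the 132 IL-1β clusters were found in the control list in 69.6% of cases (66.2% to 72.8%), against 61.8% for all IL-1β peaks. Members found in both lists had a median of 17.4 tags in control cells and 19.3 with IL-1β, and 373 of 536 (69.6%) were higher with IL-1β. Among shared peaks outside the clusters 65.2% were higher.

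Tenm3, a teneurin adhesion gene, stood at the low end of the named clusters. Its 6 peaks, chr8:48522303-48552783, held 11.0, 11.8, 11.0, 9.97, 16.1 and 15.6 tags, and peak 5 alone was listed with IL-1β, at 18.8 tags. None was in a Bmal1-/- PDX1 list or overlapped p65 or SIN3A.

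Members were found in Bmal1-/- cells far less often. The Bmal1-/- control list held 8335 PDX1 peaks on nuclear chromosomes. Of the 783 members 205 overlapped it, 26.2% (23.2% to 29.4%), against 19.1% over all 40005 peaks. With IL-1β 194 were found in Bmal1-/- cells, 24.8% (21.9% to 27.9%), against 17.7%. Within the highest class the shares in Bmal1-/- control cells were 48.7% of members (43.4% to 54.0%) and 54.7% of the peaks outside (53.7% to 55.7%), and weighted to the members' classes the outside share was 29.6%. With IL-1β the corresponding weighted share was 27.4%. The members' shares were above those of the whole list and not above those of peaks of like strength. Peaks in chains of 4, just outside the rule, stood at 28.1% in the Bmal1-/- control list and 24.1% in the Bmal1-/- IL-1β list. In the highest class they stood at 56.1% and 47.1%, against 48.7% and 47.5% of members. Shares above the whole list were thus not particular to the clusters.

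The Bmal1-/- lists were shorter and called at a higher tag threshold per peak, over wider peaks. Their headers give thresholds of 34 and 32 tags for peaks of 472 and 418 bp. In wild-type cells these were 20 and 22 tags for peaks of 207 and 226 bp, at similar depth. Scaled to depth, 704 members had a score of at least the Bmal1-/- control threshold, and 205 of these (29.1%, 25.9% to 32.6%) were found, against 25.9% of 27952 such peaks outside (25.4% to 26.4%). None of the 79 members below it was found, which allows up to 4.64% by the same interval, and outside 1.63% of 11270 were. The threshold applies to 472 bp peaks and the scores to 207 bp peaks. Tag counts above the threshold were not matched further. Weighted by class, members lay below the peaks outside, at 26.2% against 29.6%. When each list was limited to its 3152 highest-scored peaks, 14.3% of members overlapped wild-type IL-1β PDX1, 13.3% Bmal1-/- control PDX1 and 13.7% Bmal1-/- IL-1β PDX1, and over all peaks the shares were 7.75%, 7.76% and 7.55%. The shares of the genotypes lay far apart in the full lists and close together in equally long ones. A list of 3152 peaks can meet only a small part of the wild-type control peaks, in either genotype. The limit itself therefore favours low shares that lie close together. The part of list length in the gap between the full lists was not tested. Members found in both control lists had a median of 26.8 tags in wild-type and 19.7 in Bmal1-/- cells, and 36 of 205 (17.6%) were higher in Bmal1-/- cells, against 28.0% of shared peaks outside. With IL-1β in both genotypes the medians of 182 shared members were 33.4 and 16.6 tags, with 3 (1.65%) higher in Bmal1-/- cells, against 10.2% outside.

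**Figure D3:**
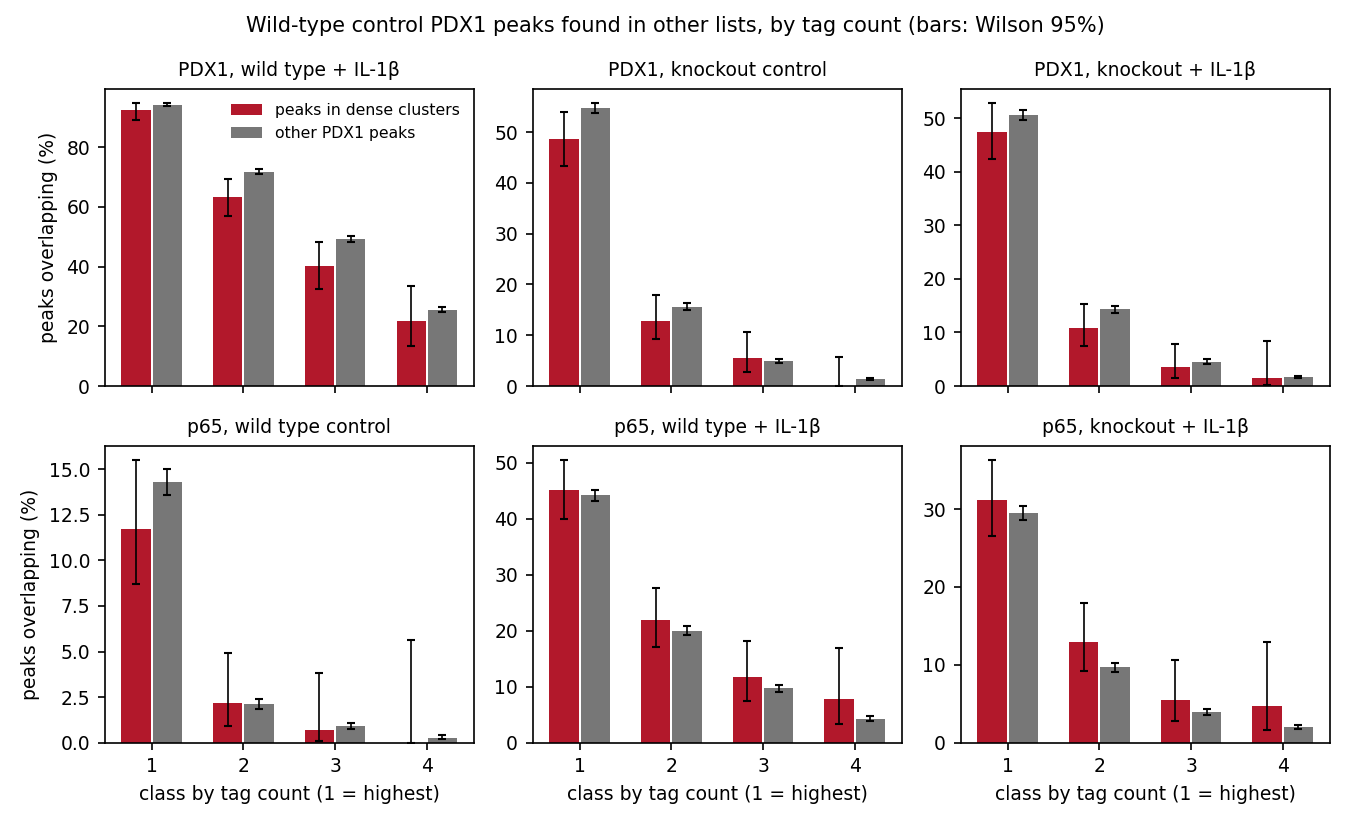
Share (%) of wild-type control PDX1 peaks that overlap a peak of 6 other lists, by class of tag count (1 is the highest), for members of dense clusters (red) and all other peaks (grey), with Wilson 95% intervals. Each panel has its own vertical scale. Shares drop from the highest to the lowest class in each panel, as for Bmal1-/- control PDX1 from 48.7% to 0 in members, and intervals of the red and grey bars overlap in most classes.

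In Bmal1-/- control cells most clusters kept part of their peaks. Of the 144, 114 kept at least 1 peak in Bmal1-/- control cells, 56 of them exactly 1, 36 kept 2 and 22 kept 3 or more. None kept all, 30 kept none and 19 kept 50% or more. With IL-1β 109 kept at least 1. Such counts also rise with the 5 or more peaks of a cluster, and they were not set against other groups of peaks. The rule itself found a single cluster in each Bmal1-/- list, at Abcc8 in control cells and at chr7:136203390-136232927 with IL-1β. That stretch, 486940 bp from the nearest gene, Mki67, had 6 wild-type peaks of 48.9, 11.5, 33.6, 28.2, 30.6 and 22.8 tags, of which 5 were listed in Bmal1-/- cells with IL-1β with peak 3 missing.

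By pattern, 130 members (16.6%, median 34.0 tags) were in all 4 PDX1 lists, against 11.3% of all 40005 peaks. The 295 in both wild-type lists and neither Bmal1-/- list (37.7%, median 12.6 tags) stood at the share of all peaks, 37.3%. In the wild-type control list alone were 224 (28.6%, median 6.98 tags), against 37.7% of all peaks. A further 23 (2.94%, 1.97% to 4.37%) were in a Bmal1-/- list and not with IL-1β in wild-type cells, against 2.25% of all peaks. These shares are not weighted for the strength of the peaks. The highest count of members found in Bmal1-/- control cells was 5, at Abcc8 and at Maml3, a Notch coactivator gene. Maml3 fell outside the rule for naming clusters, as did Antxr1, Foxa2, Nags, Scg2 and the Tle3, Cmip, Pde1c and chr7:136203390-136232927 clusters, and was chosen after its values were seen. Of the 6 Maml3 peaks 2, at 12.3 and 13.8 tags in wild-type control cells, were in the Bmal1-/- control list, at 11.4 and 12.4 tags, and not with IL-1β in wild-type cells.

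The place of a peak within its cluster ordered these shares. The strongest peak of a cluster (rank 1) had a median of 29.2 tags and that of rank 5 had 7.15. Of the 144 strongest peaks 94.4% were found with IL-1β in wild-type cells, 66.0% in Bmal1-/- control cells and 64.6% in Bmal1-/- cells with IL-1β. At rank 3 the shares were 77.8%, 20.8% and 19.4%, and at rank 5 41.7%, 5.56% and 5.56%. Rank here follows the tag count, on which the shares also depend in the whole list.

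**Figure D4:**
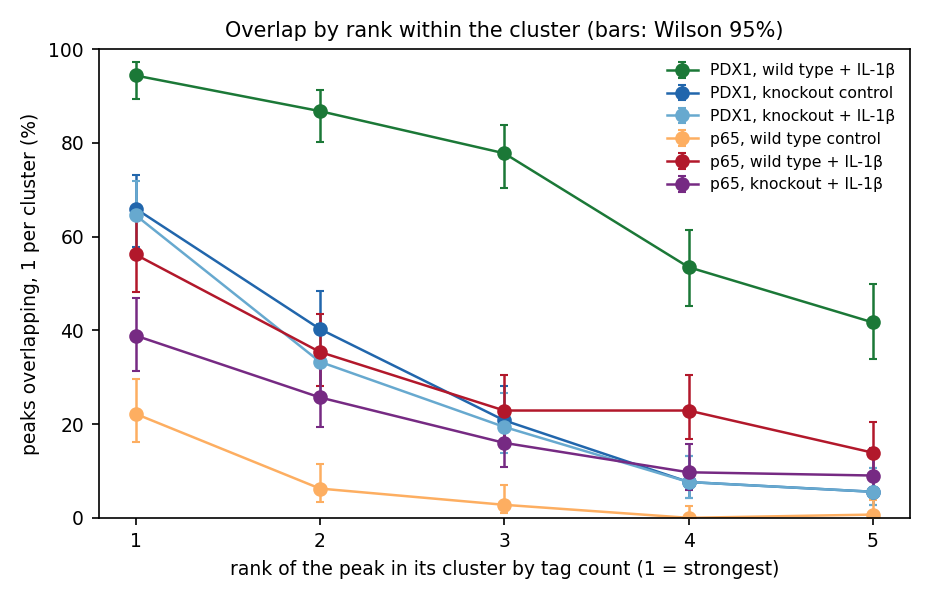
Share (%) of peaks that overlap each of 6 other lists, by rank of the peak within its cluster (1 has the most tags in wild-type control cells), over 144 clusters per rank, with Wilson 95% intervals. For PDX1 of Bmal1-/- control cells the share goes from 66.0% at rank 1 to 5.56% at rank 5, and for wild-type IL-1β p65 from 56.2% to 13.9%.

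p65 with IL-1β met members in most clusters. In wild-type cells 228 members overlapped a p65 peak of that list, 29.1% (26.0% to 32.4%), against 19.6% over all 40005 peaks and 27.4% outside when weighted to the members' classes. In the highest class the shares were 45.2% of members (40.0% to 50.5%) and 44.2% outside (43.2% to 45.2%). The overlap was therefore close to that of equally strong PDX1 peaks elsewhere. Peaks in chains of 4 stood at 25.3%. Of the 144 clusters 118 had at least 1 member with p65, 28 had 3 or more and none had p65 at all members. The count of clusters with at least 1 such member also rises with the number of peaks in a cluster. It was not set against other groups of peaks. Counting the whole span, 133 clusters held 315 p65 peaks, 87 of which lay between members, and 11 clusters held none. The rule applied to the wild-type IL-1β p65 list gave 105 clusters, and 6 of the 144 overlapped one. They were at Lgi1, Abcc8, Gse1, Tle3, Cmip and chr7:117065158-117091407.

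Before IL-1β, p65 was listed at few members. In wild-type control cells 46 members overlapped it, 5.87% (4.43% to 7.75%), against 4.37% of all peaks and 7.06% outside when weighted. With a gap of 10 kb in the rule the members' share was 3.96%, below that of all peaks. These lay in 45 clusters, 44 with 1 such member each, and all 46 were also in the wild-type IL-1β PDX1 list, as were 94.3% of the 1701 peaks outside that had control p65. With IL-1β 29 of the 46 had p65 (63.0%, 48.6% to 75.5%), close to the 60.4% outside. At these 29 the median went from 8.93 tags in control cells to 21.5 and 28 of 29 were higher, against 90.6% of 1028 such peaks outside. In Bmal1-/- control cells, whose p65 list held 173 peaks, 1 member had p65 (0.128%, 0.0225% to 0.720%), against 0.127% of all peaks. That member lay in the cluster at Antxr1, an anthrax toxin receptor gene, and carried 19.6 PDX1 tags, 288.4 p65 tags with IL-1β in wild-type cells and 125.3 in Bmal1-/- cells.

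With IL-1β, 148 members had p65 in Bmal1-/- cells, 18.9% (16.3% to 21.8%), against 11.3% of all peaks and 16.7% outside when weighted. Peaks in chains of 4 stood at 18.1%. Of the 148 members 123 also had p65 in wild-type cells and 25 did not, while 105 members had it in wild-type cells and not in Bmal1-/- cells. The 123 are 15.7% of members, against 8.21% of all peaks, the 25 are 3.19%, against 3.12%, and the 105 are 13.4%, against 11.4%. The Bmal1-/- IL-1β p65 list held 16155 peaks and the wild-type one 31373. With both limited to their 3152 highest-scored peaks the members' shares were 3.45% and 3.70%, against 1.93% and 1.86% of all peaks. At the 123 members shared by both genotypes the median p65 level was 24.5 tags in wild-type and 10.9 in Bmal1-/- cells, and 6 were higher in Bmal1-/- cells. Outside the clusters 5.60% of 3162 shared peaks were higher there, close to the 4.88% of members.

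**Figure D5:**
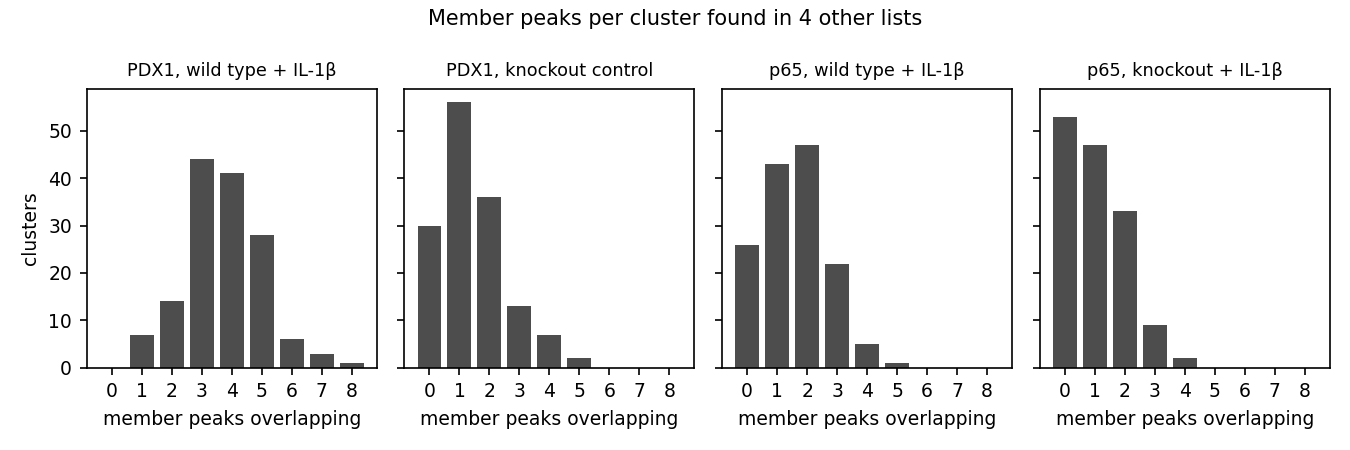
Number of clusters (vertical axis, of 144) by the number of their member peaks that overlap each of 4 other lists (horizontal axis). With IL-1β in wild-type cells every cluster keeps at least 1 PDX1 peak, while in Bmal1-/- control cells 30 clusters have none and 56 have 1, and for wild-type IL-1β p65 26 have none.

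Members that met p65 with IL-1β were found more often in Bmal1-/- PDX1 lists. Within the highest class, 94 of 155 members with wild-type p65 were in the Bmal1-/- control list, 60.6% (52.8% to 68.0%), against 73 of 188 without p65, 38.8% (32.2% to 46.0%). With IL-1β in Bmal1-/- cells the shares were 65.8% and 32.4%. Peaks outside the clusters showed the same order, at 63.3% with p65 and 48.0% without in control cells and 62.7% and 41.1% with IL-1β. In the second class the members' shares in the Bmal1-/- control list were 11.8% with p65 and 13.3% without. In the Bmal1-/- IL-1β list they were 19.6% and 8.29%. Outside the clusters the second-class shares were 17.2% with p65 and 15.2% without in control cells, and 21.4% and 12.5% with IL-1β. Tag counts within the class were not matched further, and their part in this order was not tested.

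SIN3A was listed at few members. With control siRNA 36 members overlapped it, 4.60% (3.34% to 6.30%), against 2.24% of all peaks and 3.10% outside when weighted. With Pdx1 siRNA 42 did, 5.36% (3.99% to 7.17%), against 2.85% and 4.11%. Peaks in chains of 4 stood at 3.00% with control siRNA and 4.18% with Pdx1 siRNA. In the highest class 8.16% of members (5.71% to 11.5%) and 5.16% of other peaks (4.73% to 5.62%) had SIN3A with control siRNA, and the intervals only just missed each other. They treat peaks as independent, although the 36 members lay in 27 clusters, with up to 4 in 1 cluster. The difference was not tested. With Pdx1 siRNA the values were 9.91% (7.18% to 13.5%) and 7.11% (6.62% to 7.64%), and the intervals overlapped. Of 66 members with SIN3A in either list 12 had it in both (18.2%, 10.7% to 29.1%), in 11 clusters, against 24.4% of 1575 such peaks outside. SIN3A libraries were shallower, at 31.0 and 35.0 M tags, than the PDX1 and p65 ones at 53.5 to 63.9 M.

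The genes that clusters overlapped were long. Of the 144, 91 (63.2%) overlapped the body of a protein-coding gene, 23 more had one within 50 kb and 30 had none. A protein-coding gene end lay within 21 clusters (14.6%). The 91 overlapped 90 genes, 0.411% of 21887, with a median length of 203222 bp against 17169 bp for all genes. Of members 56.7% (53.2% to 60.1%) lay in a gene body, against 47.4% (46.9% to 47.9%) of the peaks outside. Within 1 kb of a gene end lay 1.02% of members (0.519% to 2.00%) and 3.88% of other peaks (3.69% to 4.07%). Over 50 kb from one lay 52.7% of members (49.2% to 56.2%) and 50.1% outside (49.6% to 50.6%), with overlapping intervals. The median distance to a gene end was 58175 bp for members and 50226 bp outside. Gene length was not matched, and its part in these shares was not tested. The gene table holds no exons, so whether a peak is exonic or intronic was not analysed here. By chromosome, the share of PDX1 peaks in clusters ran from 0.822% on chromosome 5 to 4.20% on chromosome 7.

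Of the gene lists, few members met a cluster. Among 38 matched genes of insulin production and secretion 2 were overlapped, Abcc8 and Cacna1c, and Kcnj11 and Scg2, a granule protein gene, lay within 50 kb. Cacna1c encodes the pore of an L-type calcium channel that admits calcium for insulin release. Its cluster at chr6:118897639-118936251 held 6 peaks of 27.6, 8.97, 39.9, 31.4, 5.32 and 4.99 tags. All but peak 6 were listed with IL-1β, at 25.6, 7.93, 37.1, 41.8 and 6.64 tags, and peaks 1 and 3 were in the Bmal1-/- control list, at 19.7 and 17.9. Peaks 1, 3 and 4 were listed in Bmal1-/- cells with IL-1β, at 17.4, 13.1 and 19.6 tags. Peak 4 had p65 with IL-1β at 24.3 tags in wild-type and 14.3 in Bmal1-/- cells, and peak 1 had p65 in wild-type control cells at 6.32 tags.

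Of 33 listed β-cell transcription factor genes 19 had a PDX1 peak in the body, against 29.3% of 21887 protein-coding genes. None of the 33 was overlapped by a cluster. The nearest was Foxa2, a forkhead factor of endoderm and islets, 2462 bp from a cluster of 5 peaks with 56.7 tags. These held 22.6, 12.5, 8.14, 7.48 and 5.98 tags, of which peaks 1 to 3 were listed with IL-1β and peak 1 was in the list of Bmal1-/- control cells at 12.9 tags. Of 14 genes of other islet cells none was overlapped, but those of peptide YY (Pyy) and pancreatic polypeptide (Ppy) lay 6398 and 12911 bp from the cluster at Nags, a urea cycle gene. The strongest peak of that cluster held 95.5 tags, and 119.8 with IL-1β, and was in both Bmal1-/- lists at 47.6 and 40.8 tags. It had p65 in wild-type control cells at 16.2 tags and with IL-1β at 48.2 in wild-type and 20.3 in Bmal1-/- cells.

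Of 42 neuronal adhesion and synapse genes 40 had a PDX1 peak in the body, against 29.3% of all protein-coding genes. Gene length was not matched for these shares. The 3 overlapped by a cluster were Tenm3, Cadm1 and Ntm, which encodes neurotrimin and held 2 clusters 200479 bp apart. The Ntm cluster at chr9:29255634-29291103 had 32.9 tags on peak 1, listed in all 4 PDX1 lists, and 3.66 to 14.3 on the other 4. The other, chr9:29491583-29523584, held 6 peaks of 2.99 to 16.8 tags, 3 of them listed with IL-1β. Cadm1, an immunoglobulin adhesion molecule gene, held 5 peaks with 5.48, 6.15, 7.64, 11.3 and 18.1 tags. None of these was in a Bmal1-/- PDX1 list, and peak 4, not in the IL-1β list, had a p65 peak of 38.1 tags with IL-1β. Clusters overlapped none of 23 core clock, 34 NF-κB pathway, 21 SIN3 and histone deacetylase complex and 21 disallowed or dedifferentiation genes, nor any of 24 markers of other pancreatic and blood lineages. With 0.411% of all genes overlapped, lists of these sizes hold too few genes to read a 0 as a lack.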

How the data were processed

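The authors deposited a peak list for each of the 10 groups. HOMER findPeaks (factor style, false discovery rate 0.001, 4-fold or more over both the input and the surrounding 10 kb) made them, per the file headers, with the input shared by p65 and PDX1 of a condition. Bowtie2 and mm10 are named in the submitters' processing notes. Aligner settings, and whether replicates were pooled, are not stated there or in the headers. The signal is the authors' tag count normalised to 10 M, the score is HOMER's, and the fold columns are ratios over input and over local tags, all as deposited. Peaks were chained with pandas 2.3.3 in Python 3.11.15, leaving out 23 mitochondrial or unplaced peaks, and overlaps of at least 1 bp were counted. Chaining and overlap were tested on simulated peaks. Genes came from a RefSeq table of GRCm38.p6 (the assembly of mm10) without strand, so distances run to gene ends. The promoter table is incomplete and holds none of chromosome 18. Of 251 listed genes 248 matched (not Mct1, Sds3 and Tmem27). The members and gene lists were chosen with earlier results of these data known. Clusters were named by the 12 highest peak numbers, the 8 highest sums, the extremes of the shares in Bmal1-/- control PDX1 and IL-1β p65 among the 13 clusters of 7 or more peaks, and listed genes, 21 in all. No test between conditions was made. Alternatives were gaps of 10 and 15 kb, 4 or 6 peaks, 8-fold over input, other overlap rules, equal list lengths and gene distance.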

Additional observations from a re-analysis of the deposited data

How the results depend on the processing

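No paired analysis was possible because the lists hold no value per replicate, and leaving out replicates was not run for the same reason. Of 88 alternatives 42 stayed within the Wilson interval of the value given (counts: within 1.5 times). The rule's settings moved the number of clusters and the share of peaks in them, to 62 and 0.820% with a gap of 10 kb, 263 and 3.62% with 15 kb, 461 and 5.13% with at least 4 peaks, 44 and 0.707% with at least 6, and 19 and 0.413% at 8-fold over input. The share with wild-type control p65, above the 4.37% of all peaks in the main setting, was 3.96% and so below it with a gap of 10 kb. That with Bmal1-/- control p65 was 0 with that gap, with 6 peaks, at 8-fold and with reciprocal overlap. Under reciprocal overlap this 0 was fixed in advance, because that list has peaks of 479 bp and no 207 bp peak can pass. With at least 6 peaks SIN3A reached 7.07% and 8.48% with control and Pdx1 siRNA.

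At 8-fold, 99 members overlapped PDX1 in 53.5% (wild type, IL-1β), 20.2% and 14.1% (Bmal1-/-, without and with IL-1β), p65 in 2.02% and 17.2% (wild type) and 14.1% (Bmal1-/-, IL-1β), and SIN3A with control siRNA in 2.02%. Over all peaks passing 8-fold these shares were 40.4%, 8.70%, 8.86%, 2.35%, 10.2%, 6.65% and 1.06%, so for wild-type control p65 the members again fell below. Reciprocal overlap of 50% gave 61.9% for PDX1 with IL-1β and 0 for both Bmal1-/- PDX1 lists, whose peaks are over 2 times as wide, so no 207 bp peak can pass. It gave 21.8% and 13.4% for IL-1β p65 in wild-type and Bmal1-/- cells and 2.68% for both SIN3A lists. Centres within 100 bp gave 61.4%, 22.6% and 20.7% for the PDX1 lists, 21.5% and 13.3% for IL-1β p65, and 2.43% and 2.68% for SIN3A. Over all peaks reciprocal overlap gave 53.6% for PDX1 with IL-1β, 14.6% and 8.35% for IL-1β p65, and 1.15% and 1.63% for SIN3A, and centres within 100 bp gave 53.1%, 16.6% and 15.2%, 14.3% and 8.22%, and 1.14% and 1.59%. With second lists limited to 3152 peaks the shares were 14.3%, 13.3% and 13.7% for PDX1, 3.70% and 3.45% for IL-1β p65 and 0.128% for each SIN3A list, against 7.75%, 7.76% and 7.55%, 1.86% and 1.93%, and 0.115% and 0.0875% of all peaks. Counting a gene within 50 kb, 79.2% of clusters had one. The cause of these shifts was not tested, except for reciprocal overlap.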
